A study of Homo sapiens with 18 samples.

Results

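The first of 2 siRNAs against CTBP1-AS was set against a control siRNA in LNCaP cells, an androgen-responsive line derived from human prostate cancer. The comparison holds 4 of the 18 arrays of the study, chosen by their labels: siCTBP1-AS with vehicle, siCTBP1-AS with R1881, and the first siControl array of each treatment. R1881 is a synthetic androgen, given at 10 nM in these arrays, and the vehicle was ethanol. LNCaP arrays come in 3 sets, each with its own siControl pair: set 1 holds the 4 arrays described here, set 2 a second siRNA, siCTBP1-AS #2, with R1881 at 1 nM, and set 3 an siRNA against PSF, the protein encoded by SFPQ, with R1881 at 10 nM. The other arrays are of VCaP, a second prostate cancer line. Transfection preceded the hormone by 48 h in every group, siControl included, and LNCaP spent 3 days in medium with 2.5% charcoal-treated serum, which is depleted of steroids. The duration of R1881 is not stated in the labels. With 1 array for each siRNA and treatment, the vehicle pair and the R1881 pair (siCTBP1-AS minus siControl within a treatment) served as the 2 replicates of the siRNA effect. Nothing in the labels ties the arrays to separate cultures. A p-value here thus measures spread between samples alone, and that spread may be technical. Within a set, the spread is how far the siRNA effect differed between vehicle and R1881. An siRNA effect that depends on R1881 therefore counts as spread.

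CTBP1-AS is a long noncoding RNA transcribed antisense to CTBP1, which encodes a transcriptional corepressor. It is known as an androgen-induced RNA that binds PSF and histone deacetylase complexes in prostate cancer cells. Interferon-stimulated genes are transcribed when interferons from neighbouring or the same cells activate STAT and IRF9 complexes, and interferons themselves are made when sensors of double-stranded RNA or other receptors fire. Chaperones of the endoplasmic reticulum (ER) are induced by the transcription factors XBP1 and ATF6 when unfolded protein accumulates. ATF4 induces genes of amino acid synthesis and transport when amino acids run short or translation initiation is inhibited.

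The gene targeted by the siRNA, CTBP1-AS, was not analysed here, so its knockdown was not checked. On the log2 scale CTBP1 measured 9.67 (vehicle) and 9.37 (R1881) with siCTBP1-AS, against 9.91 and 9.51 with siControl. The CTBP1 difference, the mean of both pairs, was -0.19 (SE 0.21, adjusted p = 0.73, limma). The divergent transcript CTBP1-DT differed by -0.21 (SE 0.11, adjusted p = 0.382). SFPQ differed by -0.15 (SE 0.10, adjusted p = 0.494), and SMAD3, a TGF-beta signal transducer, by 0.01 (SE 0.22, adjusted p = 0.988). KLK3, which encodes prostate-specific antigen, measured 11.79 (vehicle) and 12.91 (R1881) with siCTBP1-AS, against 12.15 and 13.37 with siControl, a difference of -0.41 that did not pass (SE 0.10, adjusted p = 0.0823). CDKN1A, the p21 inhibitor gene, differed by 0.30 (SE 0.11, adjusted p = 0.233).

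All values are log2 RMA signals, so a difference of 1 is a doubling, and pairwise Pearson correlations of the 4 arrays lay between 0.978 and 0.989 over genes (genes are no replicates). KLK3, HOXB13, KRT8 and KRT18, the measured markers of LNCaP identity, passed the filter on low signals. Of the markers of other cells, 7 of 13 neuroendocrine, 5 of 7 basal epithelial, 8 of 12 fibroblast, 5 of 11 leukocyte and 5 of 10 endothelial genes passed it, and PTPRC, CD3E, PECAM1 and CHGA were among those left out as low. The leukocyte markers summed to 2240 and 2388 on the linear scale with siCTBP1-AS, against 1158 and 1118 with siControl. That sum moved with CD68, a lysosomal protein gene that epithelial cells also express, at 10.61 and 10.65 with siCTBP1-AS against 9.04 and 8.96 with siControl, and with LYZ, lysozyme, at 5.91 and 7.44 against 4.54 and 4.70, while PTPRC, the pan-leukocyte gene, lay between 3.32 and 3.62 on all 4 arrays. Fibroblast markers summed to 10130 and 5814 with siCTBP1-AS, against 6451 and 5790 with siControl, the vehicle array with siCTBP1-AS being highest through FN1, fibronectin. The part of these genes in the results was not tested. In bulk RNA, more cells of a type and more RNA per cell cannot be told apart. The siControl vehicle array was the highest of the 4 for 32.4% of genes tested, and the siControl R1881 array was the lowest for 22.9%.

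With siCTBP1-AS, 255 genes were higher (1.85% of the 13812 tested) and 148 were lower (1.07%) at an adjusted p under 0.05, 2.92% together. Increases were larger than decreases: 150 of the 255 rose by at least 1 log2 unit and 63 by at least 2, whereas 26 of the 148 fell by at least 1 and none by 2. Every 1 of the 403 had the same sign in both pairs, which a call favours because disagreement between the pairs counts as spread. An unadjusted p under 0.05 (limma) was held by 2448 of the 13812 genes tested. The median difference over all genes tested was -0.02, with an interquartile range of -0.15 to 0.09. Of the 255 increases, 155 were larger in R1881 and 100 in vehicle, while 104 of the 148 decreases were larger in vehicle. The spread behind these p-values was pooled over 3 array sets of LNCaP with 3 residual degrees of freedom. On the 4 arrays alone, with 1 residual degree of freedom, limma called 83 genes higher and 5 lower, and with the 4 arrays not paired by treatment 10 higher and 0 lower, although 1564 genes then had an unadjusted p under 0.05.

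The promoters of several risen genes are shown first because they carry a shared sequence. They come from RefSeq on GRCh38.p14 and cover 250 bases before to 50 after the first listed start of a gene, read in the direction of transcription. The motif GAAANNGAAA, a core of the interferon-stimulated response element, was searched on both strands, and overlapping matches were allowed. Capitals mark the matches, and 25 bases are shown on either side. For IFIT1 the region is chr10:89392482-89392554 (plus strand), for IFI27 chr14:94110603-94110675 (plus), for IFI44L chr1:78620259-78620409 (plus), for ISG15 chr1:1013359-1013424 (plus) and for B2M chr15:44711348-44711413 (plus).
IFIT1: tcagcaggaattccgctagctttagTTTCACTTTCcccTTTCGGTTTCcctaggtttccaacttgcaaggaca
IFI27: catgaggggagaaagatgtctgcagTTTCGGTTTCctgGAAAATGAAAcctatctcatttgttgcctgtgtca
IFI44L: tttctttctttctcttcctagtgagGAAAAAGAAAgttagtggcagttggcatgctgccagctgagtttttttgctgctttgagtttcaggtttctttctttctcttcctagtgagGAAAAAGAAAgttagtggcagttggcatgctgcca
ISG15: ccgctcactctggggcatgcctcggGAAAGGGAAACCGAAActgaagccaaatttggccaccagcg
B2M: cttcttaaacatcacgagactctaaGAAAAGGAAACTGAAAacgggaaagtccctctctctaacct

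Each of these 5 promoters held 2 matches, overlapping in ISG15 and B2M, and in IFI44L both stood within the same repeated stretch. The motif was present in 3.65% of all 27305 promoters and in 2.62% of the 10880 promoters of genes tested. Among genes called higher it was present in 51 of the 200 with a promoter in the table (25.5%), and in 24 of the 48 that rose by at least 2 log2 units (50%). Of the 117 called lower with a promoter, 0 held it. A match is a description of letters in the window and not a site of binding.

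Interferon effector genes, the antiviral proteins made in response to interferon, rose together. Of 30 tested, 27 rose and 0 fell, and the median difference was 2.84, against -0.02 over all genes. In all 30 both siCTBP1-AS arrays lay above both siControl arrays, a pattern held by 18.3% of all genes tested. IFIT1, whose product binds viral RNA lacking the host cap methylation, measured 12.95 (vehicle) and 13.08 (R1881) with siCTBP1-AS, against 10.20 and 7.38 with siControl. Its levels with siCTBP1-AS were alike in both treatments, while the siControl R1881 array was far the lowest, and the difference was 4.22 (SE 0.59, 18.7-fold, adjusted p = 0.0173). IFI44L, an interferon-induced gene, showed the same arrangement, with 12.68 and 12.53 against 9.90 and 6.52, and rose by 4.40 (SE 0.62, adjusted p = 0.0179).

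RSAD2, the viperin gene, which blocks viral replication, had signals of 11.15 and 11.14 (vehicle and R1881) with siCTBP1-AS, against 6.92 and 5.70 with siControl, and rose by 4.83 (SE 0.27, adjusted p = 0.000457). IFIT3, a partner of IFIT1, rose by the same 4.83 (SE 0.28), with arrays at 10.01 and 10.05 with siCTBP1-AS against 5.81 and 4.57 with siControl. XAF1, an antagonist of the apoptosis inhibitor XIAP, stood at 11.63 and 11.60 with siCTBP1-AS, against 7.98 and 5.59 with siControl, and rose by 4.83 (SE 0.48, adjusted p = 0.00473). In these 3 genes the siCTBP1-AS arrays were nearly equal and the groups lay far apart. IFIT2 rose by 4.61 (SE 0.39), IFI27 by 3.81 (SE 0.43), SAMD9 by 3.73 (SE 0.52) and OASL by 3.58 (SE 0.26). ISG15, a ubiquitin-like modifier, rose by 2.85 (SE 0.35, adjusted p = 0.00997), and USP18, which removes it, by 1.93. The 3 tested members that did not pass were IFI6 at 1.49, MX1 at 0.48 and ISG20 at 0.38. SAMD9L, at a difference of 4.56, GBP3 at 2.04 and EPSTI1 at 0.28 were measured but left out by the filter on low signals.

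These differences were larger in R1881. The median interferon effector was 2.32 higher in the vehicle pair and 3.60 higher in the R1881 pair, and 29 of the 30 differences were larger with R1881. Median signals were 10.77 (vehicle) and 10.84 (R1881) with siCTBP1-AS, against 8.32 and 6.89 with siControl. R1881 minus vehicle thus had a median of 0.05 with siCTBP1-AS and of -1.26 with siControl. The siControl R1881 array was the lowest of the 4 for 29 of the 30 genes. In the siControl arrays of LNCaP sets 2 and 3 the same genes had median responses to R1881 of -0.25 and -0.18. Whether the set 1 response differs from the others was not tested.

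**Figure D1:**
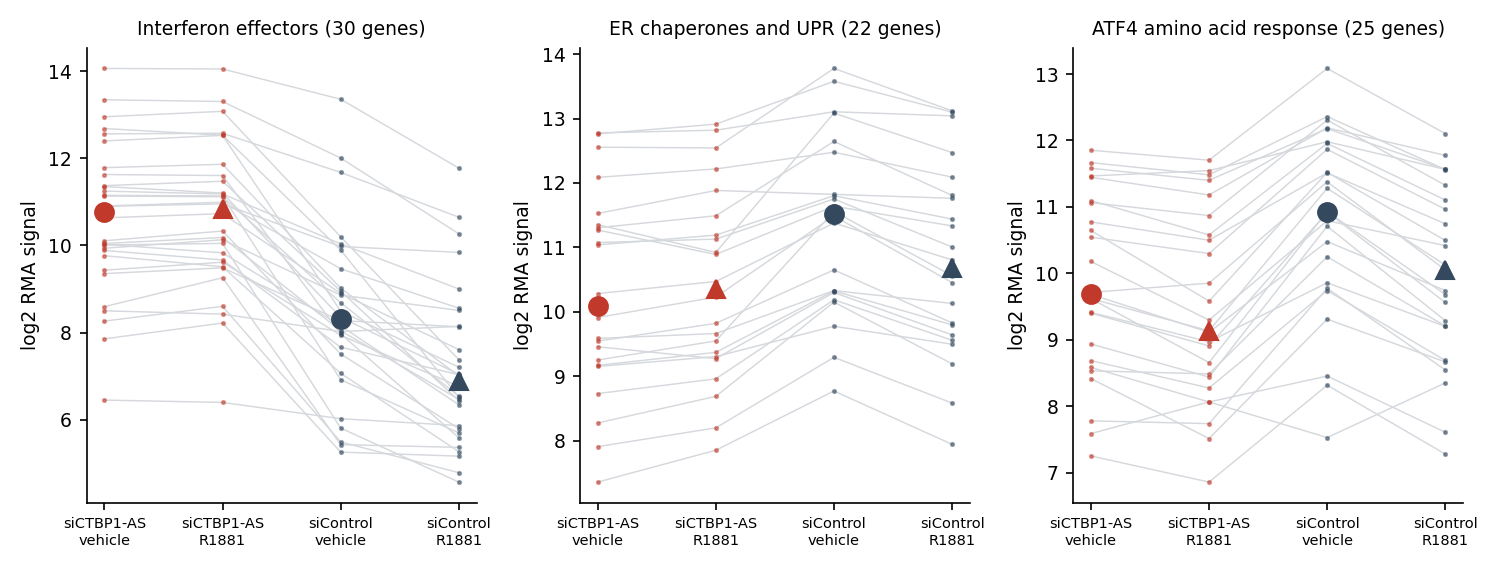
Log2 RMA signal (vertical axis) of the tested members of 3 gene lists on the 4 arrays (horizontal axis, siCTBP1-AS left of siControl, circles for vehicle and triangles for R1881). Small points joined by grey lines are genes and large symbols are medians. Interferon effectors had medians of 10.77 and 10.84 with siCTBP1-AS and of 8.32 and 6.89 with siControl, while the siControl vehicle array was the highest for ER and ATF4 genes.

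Sensors of double-stranded RNA and the enzymes that act on it rose as well, 12 of 17 tested with 0 lower (median 1.48). OAS2, an oligoadenylate synthetase that triggers RNA decay when it meets double-stranded RNA, measured 11.91 (vehicle) and 11.93 (R1881) with siCTBP1-AS, against 7.57 and 5.50 with siControl. It rose by 5.38 (SE 0.40, 41.7-fold, adjusted p = 0.00124), the second largest rise of the comparison, and its relatives OAS1 and OAS3 rose by 3.85 (SE 0.43) and 3.47 (SE 0.40). The cytoplasmic sensor genes IFIH1 and RIGI rose by 2.91 (SE 0.24) and 2.89 (SE 0.42), and DHX58, their regulator, by 1.85 (SE 0.11). TLR3, the endosomal receptor for double-stranded RNA, had signals of 10.09 and 9.89 with siCTBP1-AS, against 8.43 and 6.56 with siControl, and rose by 2.50 (SE 0.36, adjusted p = 0.0188). EIF2AK2, the kinase PKR, which stops translation, rose by 1.48 (SE 0.23), and ADAR, which edits double-stranded RNA, by 0.85 (SE 0.14). The adaptor genes MAVS at -0.15 and TICAM1 at 0.34, and the kinase gene TBK1 at 0.23, did not pass. The RNA interference machinery, which uses the transfected siRNA, had 0 of 13 genes called by limma and 3 at an unadjusted p under 0.05 (median -0.18).

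Among interferon genes themselves, 3 of 12 measured passed the filter. IFNL1, a type III interferon, measured 8.57 (vehicle) and 8.69 (R1881) with siCTBP1-AS, against 6.62 and 6.52 with siControl, and rose by 2.06 (SE 0.11, 4.18-fold, adjusted p = 0.000414). IFNL3 rose by 0.67 (SE 0.11, adjusted p = 0.0287) and IFNL2 differed by 0.62 (adjusted p = 0.0823), but these are near-identical genes whose probes may read each other. IFNB1, the type I interferon of most cells, was left out as low, with 4.64 and 4.85 with siCTBP1-AS against 4.43 and 3.96 with siControl. Of the transcription factors and receptors that relay the signal, 4 of 18 rose and 0 fell (median 0.30). IRF1 rose by 1.49 (SE 0.13), IRF9, the DNA-binding subunit of the STAT complex, by 1.43 (SE 0.22), IRF7 by 0.89 (SE 0.15) and IRF2 by 0.88 (SE 0.12).

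**Figure D2:**
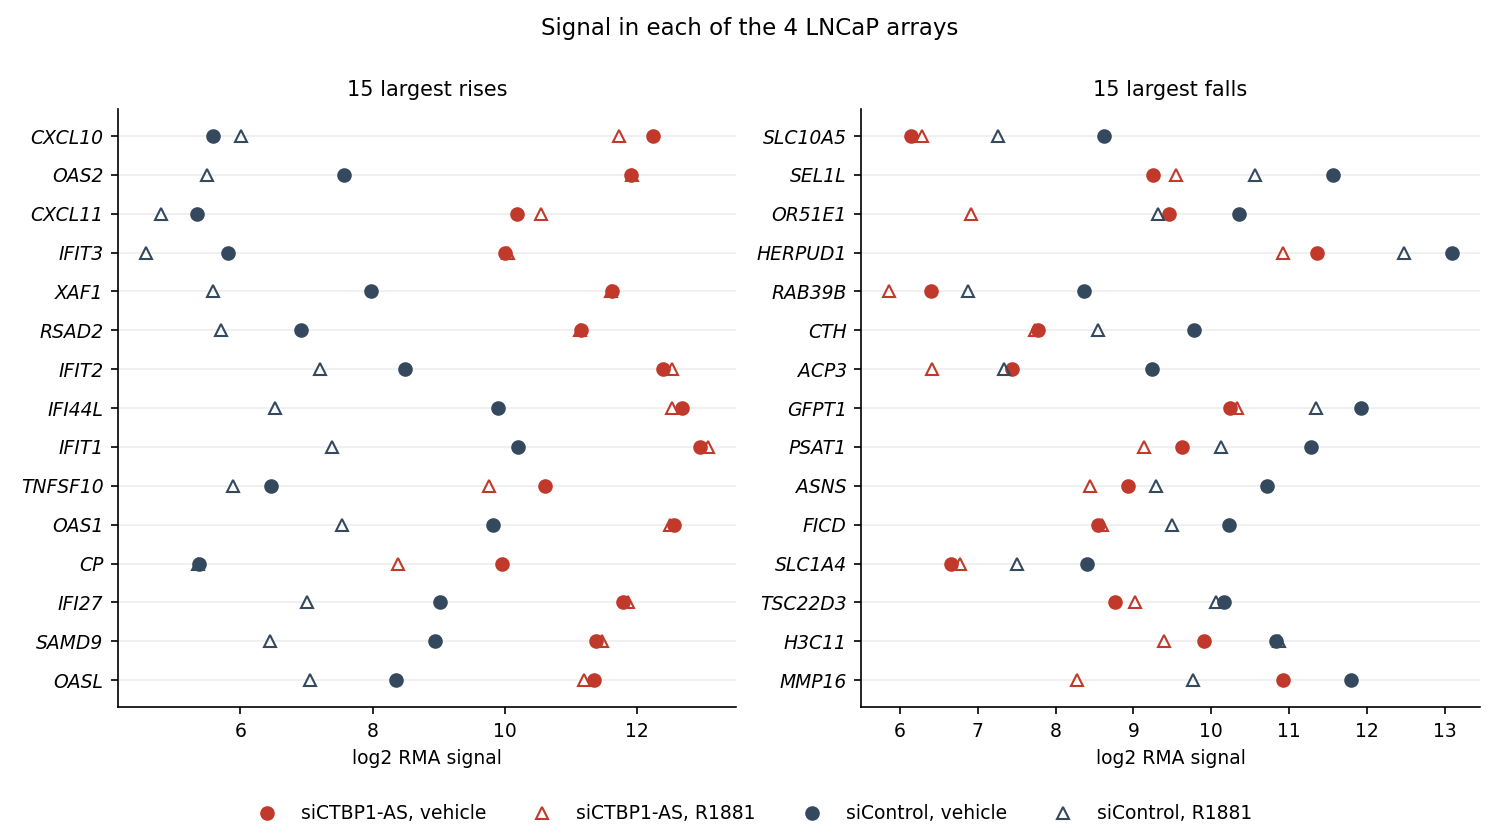
Log2 RMA signal (horizontal axis) on each of the 4 arrays for the 15 genes with the largest rises and the 15 with the largest falls among those called, ordered by difference, with siCTBP1-AS in red and siControl in dark blue, circles for vehicle and open triangles for R1881. The groups are separate for each of the 15 rises, as for 18.3% of all genes tested, but the choice of large called rises favours this. OR51E1, ACP3 and MMP16 show falls in which the siCTBP1-AS vehicle array overlaps the siControl R1881 array.

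Chemokines and cytokines rose in 9 of 12 tested genes with 0 lower (median 1.89). Of the list 21 were measured, and the rest were left out as low. The filter used the mean over all 12 LNCaP arrays, so a gene low with siControl could pass through arrays where it was high. The count and the median therefore favour genes that rose. CXCL10, a chemokine that draws T cells and natural killer cells, showed the largest difference of all, at 12.25 (vehicle) and 11.73 (R1881) with siCTBP1-AS, against 5.58 and 6.01 with siControl. It rose by 6.19 (SE 0.27, 73.1-fold, adjusted p = 0.000293) and, unlike the effectors, it was not lower with R1881 in siControl cells. CXCL11, which binds the same receptor, had 10.19 and 10.55 with siCTBP1-AS against 5.34 and 4.80 with siControl, and rose by 5.30 (SE 0.25). TNFSF10, which encodes the death ligand TRAIL, rose by 4.01 (SE 0.24), CCL5 by 3.41 (SE 0.13) and CCL2 by 2.97 (SE 0.45). CXCL8 had the same difference of 2.17 in both pairs (SE 0.09), and CCL20, TNF and CSF1 rose by 1.62, 1.18 and 0.94. The call of CCL2 was lost without either pair, at adjusted p = 0.29 without the vehicle pair and 0.075 without the R1881 pair.

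NF-kappaB, the transcription factor of inflammation, has CXCL10 and TNFAIP3 among its known targets, and their promoters are shown for this reason. The motif GGGNNNTTCC was searched on both strands with overlaps allowed and was present in 6.47% of all promoters, in 7.52% of those of genes tested and in 30 of 200 (15%) of those called higher. In CXCL10, at chr4:76023640-76023743 (minus strand), the capitals mark a GAAANNGAAA match followed by a GGGNNNTTCC match, and in TNFAIP3, at chr6:137867167-137867238 (plus), they mark 2 matches of the NF-kappaB motif.
CXCL10: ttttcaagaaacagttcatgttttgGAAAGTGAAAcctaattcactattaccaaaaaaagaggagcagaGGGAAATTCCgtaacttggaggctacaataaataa
TNFAIP3: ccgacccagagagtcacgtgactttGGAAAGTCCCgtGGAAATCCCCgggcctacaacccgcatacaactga

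TNFAIP3, which encodes the ubiquitin-editing inhibitor A20, measured 9.39 (vehicle) and 9.11 (R1881) with siCTBP1-AS, against 6.30 and 6.64 with siControl. It rose by 2.78 (SE 0.17, 6.85-fold, adjusted p = 0.000533), with both siCTBP1-AS arrays far above both siControl arrays. SOD2, the mitochondrial superoxide dismutase, rose by 1.83 (SE 0.27, adjusted p = 0.0213), with its vehicle array at 10.39 above its R1881 array at 8.99 with siCTBP1-AS, against 7.96 and 7.76 with siControl. These were the 2 called of 14 tested NF-kappaB targets, although all 14 differences were positive (median 0.71), and NFKBIA, the inhibitor gene, stood at 1.34 without passing (adjusted p = 0.0843). In contrast to the interferon effectors, the NF-kappaB median was 1.09 in the vehicle pair and 0.37 in the R1881 pair, and 13 of the 14 differences were larger in vehicle. The chemokine list had 2.10 in the vehicle pair and 1.68 in the R1881 pair.

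Genes of antigen presentation rose in 8 of 11 tested, with 0 lower (median 1.37), and 12 of the 20 listed were measured. Most of those tested serve MHC class I, but CIITA, the MHC class II transactivator, and a noncoding RNA gene were among them. No gene of an MHC class I heavy chain was tested. B2M, the light chain of MHC class I, measured 12.02 (vehicle) and 12.24 (R1881) with siCTBP1-AS, against 9.80 and 10.20 with siControl, and rose by 2.13 (SE 0.20, 4.38-fold, adjusted p = 0.00359). PSMB9, a subunit of the immunoproteasome, rose by 2.18 (SE 0.11), and the peptide transporter gene TAP1 by 1.79 (SE 0.19). NLRC5, the transactivator of MHC class I, rose by 1.37 (SE 0.14), and ERAP2, ERAP1 and TAPBP, which trim and load peptides, by 1.47, 1.01 and 0.85. The noncoding RNA gene HCP5, of the MHC locus, rose by 1.67 (SE 0.16). Among apoptosis genes 4 of 22 rose and 0 fell (median 0.09), namely TNFSF10, CASP4 by 1.39 (SE 0.15), CASP8 by 0.82 (SE 0.12) and CFLAR by 0.53 (SE 0.10).

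**Figure D3:**
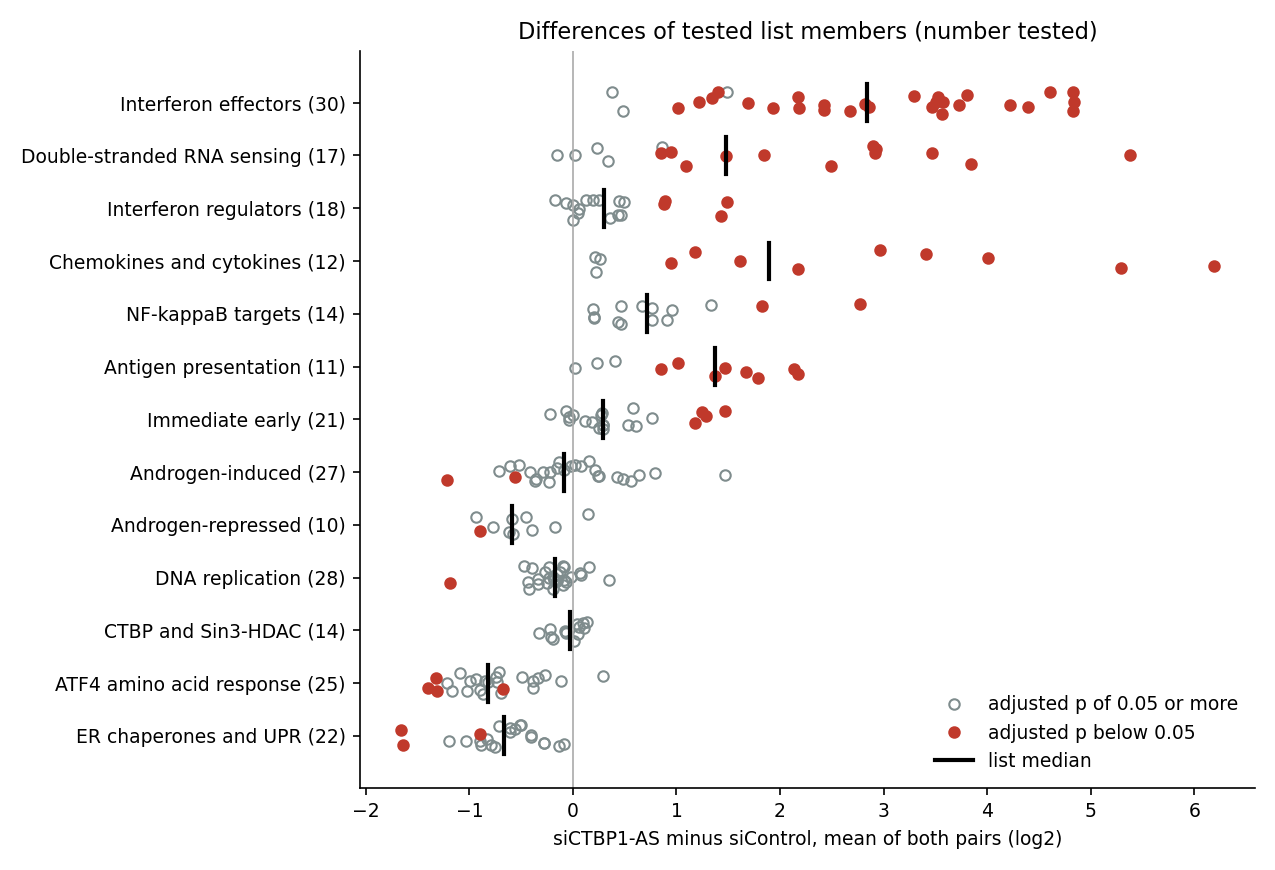
Difference siCTBP1-AS minus siControl as the mean of both pairs (horizontal axis, log2) for the tested members of 13 gene lists (rows, with the number tested). Filled points passed an adjusted p of 0.05, open points did not, and black bars are list medians. Interferon effectors had a median of 2.84, ATF4 genes of -0.82 and ER genes of -0.66.

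Few genes of the ER passed the test, but their differences ran one way. Of 22 chaperone and unfolded protein response genes tested, 3 fell and 0 rose, all 22 differences were negative (median -0.66, against -0.02 over all genes), and 18 had an unadjusted p under 0.05. HERPUD1, a membrane protein of ER-associated degradation, measured 11.35 (vehicle) and 10.92 (R1881) with siCTBP1-AS, against 13.09 and 12.47 with siControl. It fell by 1.64 (SE 0.11, 3.12-fold, adjusted p = 0.00074), with no overlap between the groups and near-equal differences in both pairs. SEL1L, the scaffold of the HRD1 ubiquitin ligase, had 9.25 and 9.55 with siCTBP1-AS against 11.56 and 10.56 with siControl, and fell by 1.66 (SE 0.26, adjusted p = 0.0243). HSPA5, the chaperone BiP, had 12.56 and 12.54 with siCTBP1-AS, against 13.78 and 13.12 with siControl, and fell by 0.90 (SE 0.15, adjusted p = 0.0292). Outside the list, FICD, which modifies BiP, fell by 1.29 (SE 0.25), and GFPT1, the entry enzyme of hexosamine synthesis, by 1.35 (SE 0.16, adjusted p = 0.00854). DNAJC3 at -1.19, DNAJB9 at -1.03 and XBP1 at -0.41 did not pass.

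Genes of the ATF4 amino acid response were lower in the same way, with 4 of 25 falling, 0 rising and 24 differences below 0 (median -0.82), of which 22 of 25 had an unadjusted p under 0.05. CTH, which makes cysteine from cystathionine, fell by 1.40 (SE 0.24, adjusted p = 0.0327), with 7.78 and 7.74 with siCTBP1-AS against 9.77 and 8.55 with siControl. ASNS, asparagine synthetase, had 8.94 in vehicle and 8.44 in R1881 with siCTBP1-AS, against 10.71 and 9.29 with siControl, and fell by 1.31 (SE 0.25, adjusted p = 0.0436). PSAT1, of serine synthesis, fell by 1.33 (SE 0.26) and SHMT2, a mitochondrial enzyme of the same pathway, by 0.67 (SE 0.10). TRIB3 at -1.22 (adjusted p = 0.0547) and CHAC1 at -1.17 (adjusted p = 0.0954) did not pass, nor did ATF4 itself at -0.38. SLC1A4, a neutral amino acid transporter, fell by 1.23 (SE 0.23) as 1 of the 15 largest falls.

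Both lists had their highest signals in the siControl vehicle array, for 21 of 22 ER genes and 23 of 25 ATF4 genes, against 32.4% of all genes. The ER median was -1.10 in the vehicle pair and -0.33 in the R1881 pair, and the ATF4 median was -0.89 and -0.53. R1881 minus vehicle had a median of 0.17 with siCTBP1-AS and -0.62 with siControl for ER genes. In siControl of LNCaP sets 2 and 3 the same genes had medians of 0.67 in each, so the siControl pair of set 1 moved the other way from both. For ATF4 genes it was -0.39 with siCTBP1-AS and -0.90 with siControl, against -0.67 and 0.01 in siControl of sets 2 and 3. Both siCTBP1-AS arrays nonetheless lay below both siControl arrays for 19 of 22 ER genes and 18 of 25 ATF4 genes, a pattern held by 25.9% of all genes tested. Without the vehicle pair limma called 2 ER and 0 ATF4 genes, and without the R1881 pair 8 and 3. The part of the siControl vehicle array in these differences was not tested.

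The motif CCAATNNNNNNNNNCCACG, the ER stress response element read by ATF6, was searched on both strands and was rare. It matched 22 of 27305 promoters, 14 of the 10880 of genes tested, 6 of 22 on the ER list and 3 of 117 called lower. HSPA5 is shown because it held this element and fell, at chr9:125241366-125241434 (minus strand). The core TGATGNAA of the amino acid response element was present in 3.67% of all promoters and in 1.80% of those of genes tested. It was present in 6 of the 22 ATF4 list genes with a promoter and in 5 of 117 called lower (4.27%). ASNS is shown at chr7:97872444-97872501 (minus strand). Capitals mark the matches.
HSPA5: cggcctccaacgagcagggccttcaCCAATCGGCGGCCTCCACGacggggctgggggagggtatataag
ASNS: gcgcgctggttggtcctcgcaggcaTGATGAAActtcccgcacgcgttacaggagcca

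The 6 ER genes with the element had a median difference of -0.45, against -0.75 in the 16 without it, and the 6 ATF4 genes with the core had -0.44, against -0.88 in 16. For interferon effectors the median was 2.85 in the 17 with a match and 2.42 in the 7 without. For antigen presentation genes it was 0.93 in the 6 with a match and 1.67 in the 3 without. For double-stranded RNA sensing genes it was 2.91 in the 5 with a match and 0.86 in the 9 without. For chemokines and cytokines, with the NF-kappaB motif, it was 3.46 in the 4 with a match and 2.17 in the 3 without.

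Further decreases are given as single genes, although some other lists leaned lower with few calls. Differences were positive for 4 of 28 DNA replication, 2 of 22 ribosomal protein and 1 of 10 androgen-repressed genes. Both siCTBP1-AS arrays lay below both siControl arrays for 15, 15 and 1 of them, against 25.9% of all genes tested. SLC10A5, a member of a bile acid transporter family, had the largest fall, by 1.73 (SE 0.34, adjusted p = 0.0475), with 6.14 in vehicle and 6.29 in R1881 with siCTBP1-AS against 8.62 and 7.25 with siControl. OR51E1, an olfactory receptor of prostate tissue, fell by 1.65 (SE 0.30, adjusted p = 0.0397), chiefly through its siCTBP1-AS R1881 array at 6.91, against 9.46 in vehicle with siCTBP1-AS and 10.36 and 9.31 with siControl. ACP3, the prostatic acid phosphatase, fell by 1.36 (SE 0.22), and MMP16, a membrane-bound metalloproteinase, by 1.19 (SE 0.20). RAB39B, a small GTPase gene, fell by 1.49 (SE 0.24) and H3C11, a histone H3 gene, by 1.21 (SE 0.20). CDC6, which licenses replication origins, was the 1 called lower of 28 DNA replication genes, by 1.18 (SE 0.20, adjusted p = 0.0303, limma). No mitosis gene of 27 was called (4 at an unadjusted p under 0.05), and the medians were -0.17 for replication and -0.02 for mitosis.

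Among cytoskeletal genes of microtubules and axons, 3 of 15 fell and 1 rose. NMNAT2, which makes NAD in axons, fell by 1.12 (SE 0.13), SEPTIN11 by 0.82 (SE 0.12) and KIF5C, a kinesin, by 0.68 (SE 0.13), while MAP2 rose by 0.87 (SE 0.11). ARG2, mitochondrial arginase, fell by 0.83 (SE 0.15) as the 1 of 13 polyamine and arginine genes. The corepressor list (14 tested), paraspeckle genes (9), splicing factors (22), ribosomal proteins (22) and p53 targets (17) had 0 called by limma, with 2, 2, 2, 5 and 4 at an unadjusted p under 0.05. Over all genes tested, 2448 of 13812 had such a p.

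Increases outside the interferon and inflammatory lists included enzymes of steroid and stress metabolism. AKR1C2, which inactivates dihydrotestosterone, measured 10.33 (vehicle) and 9.64 (R1881) with siCTBP1-AS, against 7.18 and 6.48 with siControl, and rose by 3.16 in each pair (SE 0.16, adjusted p = 0.00038). AKR1C1 rose by 3.04 (SE 0.18), but the 2 genes are near-identical and their probes may read each other. HMOX1, heme oxygenase, rose by 1.31 (SE 0.25, adjusted p = 0.0475) as the third of 14 genes of the NRF2 and AKR1C list. CP, ceruloplasmin, which oxidises iron, had 9.96 and 8.39 with siCTBP1-AS against 5.37 and 5.36 with siControl, and rose by 3.81 (SE 0.50, adjusted p = 0.0131).

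THBS1, thrombospondin, stood at 11.26 and 11.15 with siCTBP1-AS, against 8.14 and 9.06 with siControl, and was the 1 gene called among 15 of TGF-beta signalling (difference 2.60, SE 0.48, adjusted p = 0.0402). Immediate early genes rose in 4 of 21, DUSP5 by 1.47, KLF4 by 1.29, EGR1 by 1.25 and JUNB by 1.18. The CDK inhibitor gene CDKN2B rose by 0.92 (SE 0.10), the heat shock genes DNAJA1 and HSPH1 by 0.80 and 0.55, the sterol gene LSS by 0.68 and the histone gene H2BC12 by 0.60. MSMB, which encodes a secreted protein of the luminal prostate, rose by 1.53 (SE 0.11, adjusted p = 0.000932) and LAMB3, a laminin chain listed as basal, by 0.90 (SE 0.15). ACTA2, at 1.65 on the fibroblast list, did not pass (adjusted p = 0.0819).

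A separate question was whether the response to the androgen differed between siRNAs. Genes responsive to R1881 were taken from the siControl arrays of LNCaP sets 2 and 3, which the comparison does not contain, as those moving by at least 1 log2 unit the same way in both. Each of the 4 groups has 1 array, so the R1881 responses carry no test. The 197 induced genes had a median response of 1.01 with siCTBP1-AS and of 1.20 with siControl. The response was smaller with siCTBP1-AS for 114 of them and larger for 83, and 100 with siCTBP1-AS and 114 with siControl reached 1 log2 unit. The 104 repressed genes had medians of -0.65 with siCTBP1-AS and -0.82 with siControl, and 29 and 42 reached -1. Androgen-induced genes from the known list had median responses of 1.81 with siCTBP1-AS and 1.92 with siControl (27 tested). In the tested siRNA effect, the mean of both pairs, TSC22D3, a leucine zipper gene, fell by 1.22 (SE 0.23, adjusted p = 0.0447) and ABCC4, a transporter, by 0.56 (SE 0.11, adjusted p = 0.046). Of 10 known androgen-repressed genes, TNFRSF19, a TNF receptor family gene, fell by 0.89 (SE 0.10, adjusted p = 0.0074, limma), and the median siRNA effect was -0.58. In siControl of sets 1, 2 and 3, R1881 minus vehicle was 0.72, -0.09 and 0.005 for TNFRSF19. It was -0.10, -0.96 and 0.33 for TSC22D3, so these 2 genes did not follow their lists in every set. For ABCC4 it was 1.92, 1.97 and 1.92.

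Single genes differed more. AGR2, a disulfide isomerase of secretory cells, measured 7.03 (vehicle) and 9.68 (R1881) with siCTBP1-AS, against 9.23 and 8.32 with siControl. It was thus induced by R1881 with siCTBP1-AS (2.65) but not with siControl of the same set (-0.91), although siControl of sets 2 and 3 gave 1.77 and 2.52. TXNIP, the thioredoxin-interacting protein, responded by 1.85 with siCTBP1-AS and by -0.34 with siControl, and it was repressed in sets 2 and 3 (-1.38 and -1.41). TLR3 responded by -0.20 with siCTBP1-AS and by -1.86 with siControl. Smaller responses with siCTBP1-AS were seen for TM4SF1, a tetraspanin-like membrane protein gene, at 0.93 with siCTBP1-AS and 2.79 with siControl, and LCP1, plastin, at -0.28 and 1.40. STEAP4, a metalloreductase, responded by 4.46 with siCTBP1-AS and 6.13 with siControl.

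**Figure D4:**
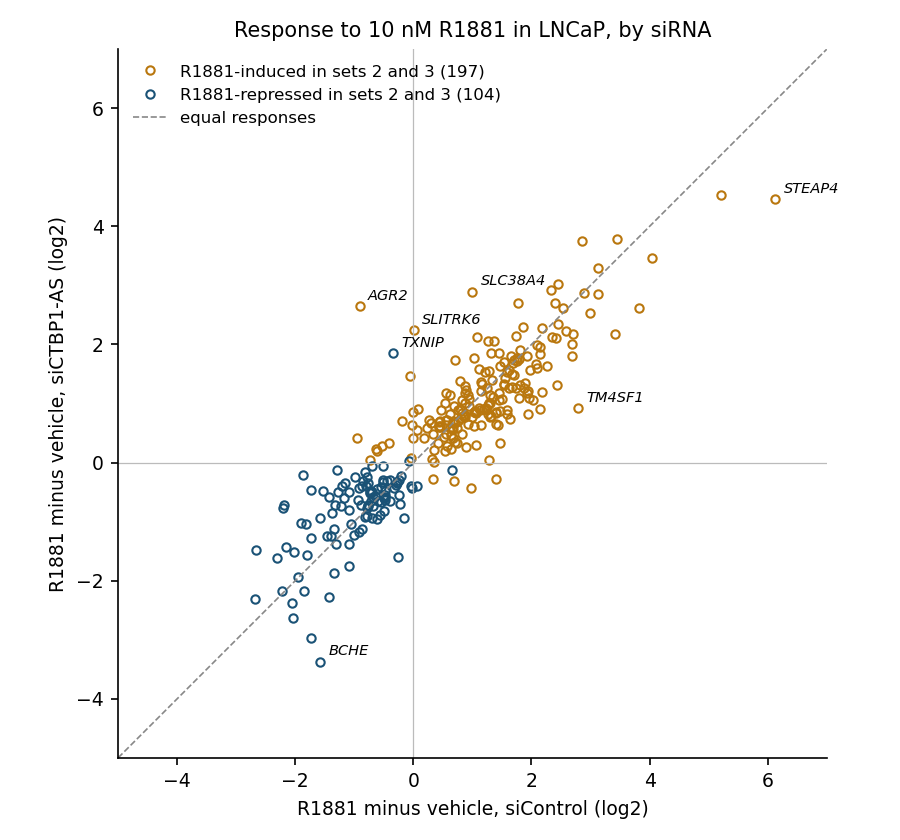
Response to 10 nM R1881 (R1881 minus vehicle, log2) with siCTBP1-AS (vertical axis) and with siControl (horizontal axis) for 197 genes induced and 104 repressed by R1881 in siControl of LNCaP sets 2 and 3. Points on the dashed line have equal responses. AGR2 (2.65 with siCTBP1-AS and -0.91 with siControl) lies farthest above it.

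The second CTBP1-AS siRNA, used with its own siControl arrays and 1 nM R1881, gave changes that overlapped in part with those of the first. That siRNA had 1204 genes higher (8.72% of 13812) and 1545 lower (11.2%). Of the 255 genes higher with the first siRNA, 106 were also higher with the second, which is 41.6% of the first list and 8.80% of the second. Of the 148 lower, 52 were lower with both (35.1% and 3.37%), while 11 were higher with the first and lower with the second and 17 the reverse. Effects correlated across the genes tested at Pearson r = 0.29 and Spearman rho = 0.14, as a description across genes. The first minus the second siRNA was called higher in 736 genes (5.33%) and lower in 496 (3.59%). Among genes risen with the first, 127 differed upward and 1 downward. These genes were chosen on the first siRNA's effect, which is part of this difference, so the direction is favoured by the choice. The R1881 dose, the array set and the siRNA change together between the 2 sets and cannot be told apart.

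Interferon effectors rose with both siRNAs, 27 of 30 with the first and 21 with the second, with medians of 2.84 and 1.55, and 11 were called higher in the difference. IFIT1 rose by 4.22 with the first and 4.43 with the second, a difference of -0.21 (SE 0.84, adjusted p = 0.901). OAS1 rose by 3.85 and 3.61 (difference 0.24, SE 0.61, adjusted p = 0.842). CXCL10 rose by 6.19 with the first and 2.54 with the second (difference 3.65, SE 0.38, adjusted p = 0.00927), and OAS2 by 5.38 and 1.71 (difference 3.68, SE 0.57, adjusted p = 0.0179). IFI27 rose with the first and stood at 0.78 with the second (difference 3.03, adjusted p = 0.032).

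Some chemokines, NF-kappaB targets and antigen presentation genes differed between the siRNAs. In the difference, 8 of 12 chemokine and cytokine genes, 4 of 14 NF-kappaB targets and 6 of 11 antigen presentation genes were called higher and 0 lower. TNFAIP3 rose by 2.78 with the first and stood at -0.33 with the second (difference 3.11, SE 0.24, adjusted p = 0.00463), and CCL2 stood at 2.97 and -0.08 (difference 3.05, SE 0.63, adjusted p = 0.0335). CP had 3.81 with the first and -0.07 with the second (difference 3.88, SE 0.71, adjusted p = 0.026), and B2M 2.13 and 0.08 (difference 2.05, SE 0.28, adjusted p = 0.0139). CD274, which encodes the checkpoint ligand PD-L1, rose by 1.93 with the first and fell by 1.88 with the second (difference 3.81, SE 0.30, adjusted p = 0.00463).

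Of the 22 ER genes, 3 were called lower in the difference between siRNAs. HERPUD1 stood at -1.64 with the first and 0.39 with the second (difference -2.03, SE 0.16, adjusted p = 0.00463), whereas SEL1L did not pass (difference -1.35, SE 0.37, adjusted p = 0.0667). The ER median was -0.66 with the first and -0.04 with the second. The ATF4 list had -0.82 and -0.14, with 2 of 25 called lower. ACP3 and OR51E1 fell with the first and rose with the second, by 0.94 and 1.19. Decreases held by both siRNAs included SLC1A4 (-1.23 with the first and -1.39 with the second), MMP16 (-1.19 and -1.44), NMNAT2 (-1.12 and -1.20) and SHMT2 (-0.67 and -0.79). DEPTOR, an inhibitor of mTOR, stood at 0.25 with the first and 2.69 with the second (difference -2.44, adjusted p = 0.0149), and CATSPERB and SERPINI1 likewise rose with the second by 2.50 and 2.45.

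**Figure D5:**
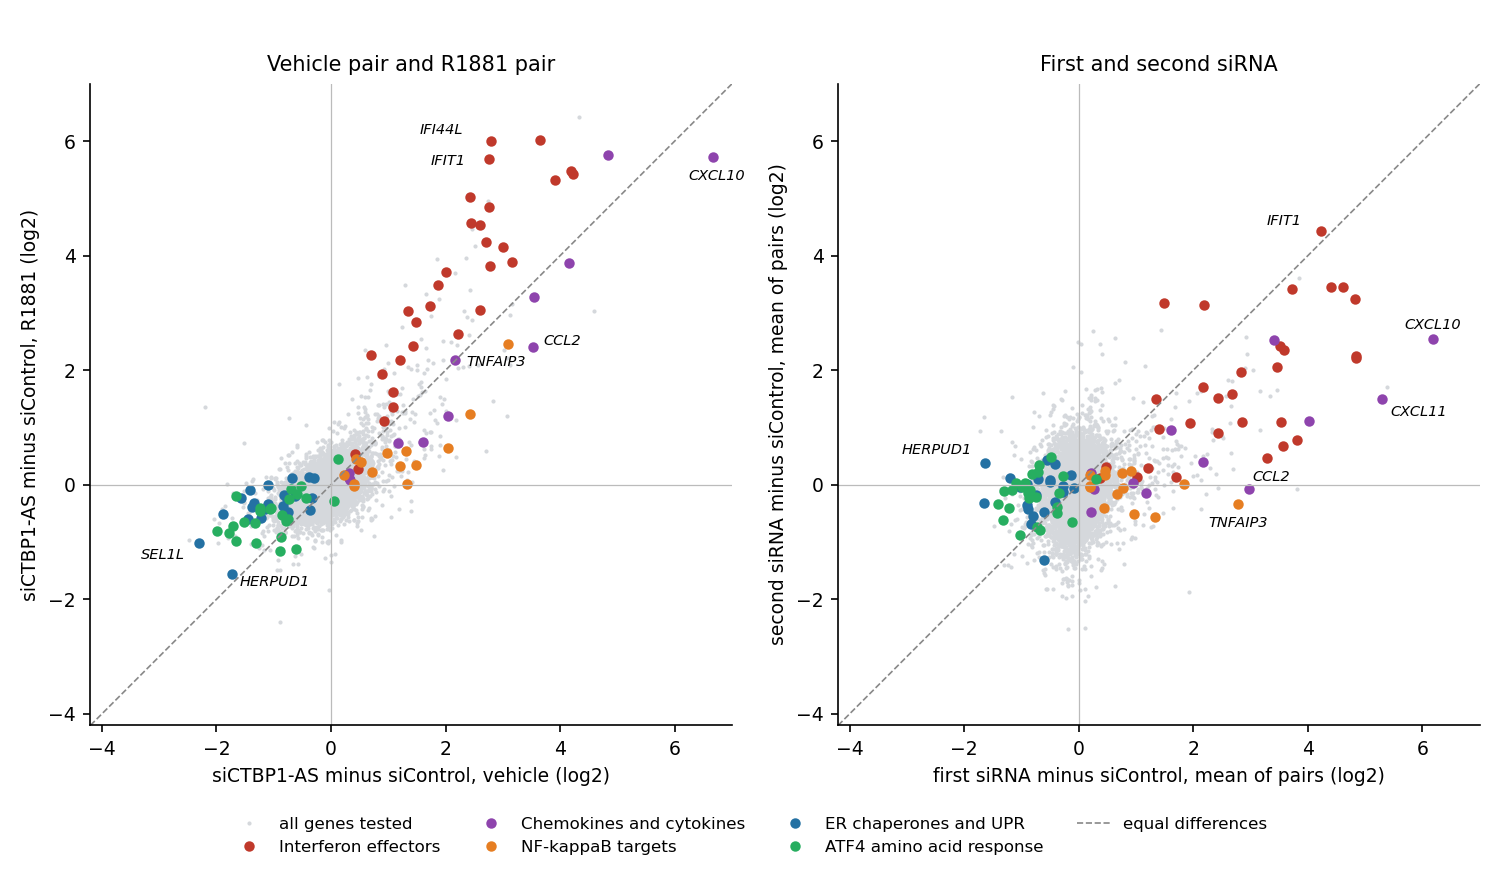
Left, difference siCTBP1-AS minus siControl (log2) in the R1881 pair against the vehicle pair. Right, effect of the second CTBP1-AS siRNA against that of the first (log2, mean of both pairs). Grey points are the 13812 genes tested, coloured points are members of 5 lists and the dashed line marks equal differences. Interferon effectors lie above the line on the left and NF-kappaB targets below it, and on the right CXCL10 (6.19 and 2.54) and TNFAIP3 (2.78 and -0.33) lie below the line.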

How the data were processed

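Total RNA was measured on Affymetrix gene-level arrays. The values are log2 signals from the authors' RMA summarisation; the submitters' processing notes name Expression Console 1.1.1. The sources used here do not say which arrays were normalized together. Array medians in set 1 were 6.69 to 6.71, and the number of arrays limits the precision.

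Of 33297 clusters, 19460 had 1 symbol, 1754 several and 12083 none in the platform annotation; a gene took its cluster with the highest mean (18417 genes). The 25% of genes with the lowest mean were left out. limma 3.58.1 in R 4.3.3 (lmFit, eBayes, Benjamini-Hochberg at 0.05) was fitted to the 12 LNCaP arrays. Each set had its own level, R1881 term and siRNA term, with 3 residual degrees of freedom. The siRNA effect is the mean of the vehicle and R1881 pairs of set 1, and the code was tested on simulated data. Gene lists are described by counts and medians. Genes were named by rule: the 15 largest rises and falls among those called, the called members of a list (at most 8, otherwise the 3 largest), the 8 largest called differences between siRNAs and the 8 largest differences in R1881 response each way, with CTBP1, SFPQ, SMAD3, KLK3 and CDKN1A always; other genes the rule always names had no value here and were not analysed. Other named genes were chosen after their values were seen. The comparison and the gene lists were chosen with earlier results of these data known. Alternatives changed the arrays, filter, pairing, R1881 term, cluster choice, normalization and spread model.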

Additional observations from a re-analysis of the deposited data

Results flagged for a closer look

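Clusters without a gene symbol were not part of the comparison above. When all 24972 clusters above the filter were tested with the same limma fit, 264 were called in either direction. Of the 7194 unnamed ones, 32 were called higher with siCTBP1-AS and 26 lower, no larger a share than among all clusters. What they measure was not analysed here.

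Of 301 genes responsive to R1881, 93 had siRNA effects of opposite sign in the vehicle and R1881 pairs, most of them small in at least 1 pair. In 4 genes both effects were at least 0.5 on the log2 scale. The siCTBP1-AS effect in R1881 minus that in vehicle was 3.56 for AGR2, 2.24 for SLITRK6, 1.90 for SLC38A4 and -1.12 for NNMT. With 1 array per siRNA and treatment these differences were not tested.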

How the results depend on the processing

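No paired analysis was possible because the siCTBP1-AS arrays carry no replicate number, so the groups compared share fewer than 2 numbers; pairing was by treatment instead. The 89 named genes called kept their direction under the alternative fits that tested them, while the number of calls moved. Only a change of cluster choice or normalization could have turned them. The other fits with both pairs keep the same siRNA effect, the mean of both pairs. Leaving out 1 pair could not turn them either, because each had the same sign in both pairs. For the siCTBP1-AS effect the 403 calls became 88 on the 4 arrays alone, 652 with all 18 arrays, 112 without the vehicle pair and 182 without the R1881 pair. By direction they were 255 higher and 148 lower in the fit reported, 83 and 5 on the 4 arrays alone, 10 and 0 without pairing by treatment, 342 and 310 with all 18 arrays, 226 and 81 with a shared R1881 term, 291 and 115 with no filter, 194 and 208 with the lower 50% of genes left out, and 304 and 261 with an intensity trend and robust prior. Without the vehicle pair they were 106 and 6, and without the R1881 pair 126 and 56, when the lone pair is assumed to vary like the other sets. Of the 403, 77 were called on the 4 arrays alone and 379 with 18 arrays. The 1232 genes differing between the siRNAs became 62 to 92 without 1 pair. The 27 interferon effectors became 11 on 4 arrays and 2 without pairing. The 3 ER genes became 1 on 4 arrays, 8 with 18 arrays, 0 without pairing, 1 with a shared R1881 term and 7 with the trend, and 2 to 8 without 1 pair. The 4 ATF4 genes became 0 on 4 arrays, 13 with 18 arrays, 0 without pairing and 2 with a shared R1881 term, and 0 to 3 without 1 pair. The median change in response of R1881-repressed genes moved to 0.20 at a threshold of 1.5 log2 units, against 0.10. The 15 named genes with opposite signs in the 2 pairs, none of them called, turned when 1 pair was left out. Their siCTBP1-AS effects in the vehicle pair alone and the R1881 pair alone were, in this order, FASN (0.84 and -0.0203), NDRG1 (0.60 and -0.10), FN1 (0.70 and -0.066), ESAM (-0.11 and 0.032), AGR2 (-2.19 and 1.36), SLITRK6 (-1.51 and 0.73), NIPSNAP3A (-1.38 and 0.0697), STEAP4 (1.39 and -0.28), DUSP4 (0.89 and -0.35), PDK1 (0.18 and -1.002), ENO2 (0.076 and -1.20), CATSPERB (0.23 and -0.24), SERPINI1 (-0.075 and 0.16), SLC38A4 (-0.73 and 1.16) and SMAD3 (-0.11 and 0.14). The gene list medians that turned in the same way were androgen-induced (0.018 and -0.22), TGF-beta and SMAD (-0.11 and 0.042), CDK inhibitors and RB (0.055 and -0.0801), mitosis (0.0600 and -0.12), hypoxia and glycolysis (0.41 and -0.39), neuroendocrine (0.076 and -0.015), basal epithelium (0.075 and -0.056) and fibroblast (0.12 and -0.057). The cause was not tested. Of the named genes, 84 lost their call with the 4 arrays not paired by treatment, 59 on the 4 arrays alone, 48 without the vehicle pair and 38 without the R1881 pair. A lone pair has fewer arrays behind it. Calls lost without the vehicle pair but held without the R1881 pair included B2M, CP, SOD2, HSPA5, CTH, GFPT1 and SLC10A5, and the reverse held for TLR3, IRF9, CD274, TXNIP and OR51E1, while CCL2, TAP1, ASNS, PSAT1, SHMT2, THBS1 and CDC6 lost theirs without either.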

Other observations

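Gene families recognised by symbol after their values were seen add to the lists, and are given as values. All 4 tested APOL genes, which encode apolipoprotein L proteins of innate immunity, rose, with APOL6 at 8.51 in vehicle and 8.04 in R1881 with siCTBP1-AS, against 6.10 and 5.42 with siControl (difference 2.51, SE 0.15, adjusted p = 0.000487). APOL1 rose by 2.33, APOL3 by 2.29 and APOL2 by 1.00. Of 12 PARP genes, which attach ADP-ribose to proteins, 4 rose and 1 fell, with PARP9 at 2.56 (SE 0.30), PARP14 at 2.32 (SE 0.17), PARP12 at 1.32 and PARP10 at 0.62, while PARP11 fell by 0.65 (SE 0.10). Of 44 TRIM genes, 5 rose and 0 fell, among them TRIM22 by 3.53 (SE 0.21) and TRIM21, an intracellular antibody receptor, by 2.02 (SE 0.20). Of 4 IFITM genes, 3 rose and 1, outside the interferon effector list, fell. CLDN1, a tight junction protein gene, had 8.02 and 7.49 with siCTBP1-AS against 5.79 and 4.86 with siControl, and rose by 2.43 (SE 0.16). Its family did not rise as a whole, with 2 of 12 CLDN genes higher, 0 lower and a median of -0.003.

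MIR21, the gene of an abundant microRNA of cancer cells, measured 8.39 (vehicle) and 8.24 (R1881) with siCTBP1-AS, against 7.38 and 6.81 with siControl, and rose by 1.23 (SE 0.13, adjusted p = 0.00523, limma). Gene-level probes read its precursor, not the mature strand, whose RefSeq sequence (chr17:59841273-59841294, plus strand) is given with bases 2 to 8, the seed, in capitals.
hsa-miR-21-5p: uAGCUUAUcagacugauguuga

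Further ER and transport genes fell outside the lists. HSPA13, a chaperone of the HSP70 family, fell by 1.05 (SE 0.17), ERO1B, which forms disulfide bonds, by 1.00 (SE 0.18), SEC63, of the translocation pore, by 0.78 (SE 0.13), and SLC1A5, a glutamine transporter, by 1.07 (SE 0.20). EDEM3 fell by 0.85 and UGGT1, which senses misfolded glycoproteins, by 0.63.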
